A study of Mus musculus with 4 samples.

Results

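The S100 genes code for small calcium-binding proteins with a pair of EF hands, and this account follows 10 of them through infarcted and non-infarcted mouse left ventricle. They were chosen by gene symbol, with earlier results of these data known: S100a1, S100a4, S100a6, S100a8, S100a9, S100a10, S100a11, S100a13, S100a16 and S100b. All 10 are among the 17550 genes with a read in any library. Each had reads in all 4 libraries. The mice were C57BL/6, aged 8 weeks, and all underwent experimental myocardial infarction 3 days before RNA was taken. The groups were infarcted and non-infarcted ventricle of mice labelled Neil3-/-, which lack a DNA glycosylase gene by label, and infarcted and non-infarcted ventricle of wild-type mice. There was 1 library per group, the labels do not describe the Neil3 allele or say whether tissue was pooled, and the non-infarcted tissue came from infarcted hearts, not from unoperated animals.

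S100 proteins mostly form dimers that change shape when calcium binds and then attach to target proteins. Inside cells they adjust the cytoskeleton, membranes, annexins and calcium channels, and several are released from dying or activated cells and act on receptors of innate immune cells. S100a1 is the cardiomyocyte member and aids calcium release and uptake at the sarcoplasmic reticulum. S100a8 and S100a9 pair to form calprotectin, an abundant protein of neutrophils and young monocytes. S100a4, S100a6, S100a10 and S100a11 occur in fibroblasts, leukocytes and vascular cells, while S100b is best known from glia and adipocytes.

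In the RefSeq annotation of GRCm38, 9 of the 10 genes lie on chromosome 3 and S100b lies on chromosome 10. Promoter windows of 300 bases, from 250 before to 50 after the annotated start, were found for 9 members. They come from RefSeq on GRCm38.p6, another build than the mm9 used for the read counts. S100a1 and S100a13 are shown since they are neighbours on opposite strands whose levels differed in opposite directions between tissues. The S100a1 window (chr3:90514281-90514580, minus strand) and the S100a13 window (chr3:90514185-90514484, plus strand) share 204 bases, printed in capitals, and their annotated starts lie 105 bases apart.
S100a1: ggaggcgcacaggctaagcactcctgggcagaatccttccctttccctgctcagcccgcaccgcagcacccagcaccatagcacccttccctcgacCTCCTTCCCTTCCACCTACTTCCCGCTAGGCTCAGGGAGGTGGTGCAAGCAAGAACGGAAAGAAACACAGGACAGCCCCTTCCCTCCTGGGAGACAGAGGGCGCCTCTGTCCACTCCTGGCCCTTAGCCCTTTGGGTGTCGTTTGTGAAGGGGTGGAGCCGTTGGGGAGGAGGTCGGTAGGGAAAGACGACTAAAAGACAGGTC
S100a13: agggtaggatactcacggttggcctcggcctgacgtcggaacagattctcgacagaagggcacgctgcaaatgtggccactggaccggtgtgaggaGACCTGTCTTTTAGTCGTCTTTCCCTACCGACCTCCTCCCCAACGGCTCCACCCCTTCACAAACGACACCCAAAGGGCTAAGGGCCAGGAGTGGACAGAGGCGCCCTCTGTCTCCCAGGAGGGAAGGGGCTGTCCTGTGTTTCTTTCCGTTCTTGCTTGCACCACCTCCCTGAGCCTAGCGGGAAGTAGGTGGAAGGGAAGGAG
The next windows belong to the 2 members with the largest infarct ratios, S100a8 (chr3:90668821-90669120, plus strand) and S100a9 (chr3:90695672-90695971, minus strand). Capitals mark matches to the TATA box motif TATAAA, to TTGCNNAA (C/EBP) and GAGGAAGT (PU.1) on either strand.
S100a8: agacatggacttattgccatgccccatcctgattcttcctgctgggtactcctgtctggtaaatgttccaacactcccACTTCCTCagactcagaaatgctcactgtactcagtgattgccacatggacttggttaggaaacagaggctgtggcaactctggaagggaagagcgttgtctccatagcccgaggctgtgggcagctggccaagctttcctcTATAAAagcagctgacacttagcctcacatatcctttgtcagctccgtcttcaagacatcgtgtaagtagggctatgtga
S100a9: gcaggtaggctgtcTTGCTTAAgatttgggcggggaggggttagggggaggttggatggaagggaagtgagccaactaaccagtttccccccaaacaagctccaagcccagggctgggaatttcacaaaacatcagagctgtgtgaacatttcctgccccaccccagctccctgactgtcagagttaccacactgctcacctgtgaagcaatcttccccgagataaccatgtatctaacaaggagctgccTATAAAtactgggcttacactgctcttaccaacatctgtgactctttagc
S100a11 (chr3:93520246-93520545, plus strand) is shown as the member with the highest level in infarcted tissue, with the AP-1 motif (TGA and TCA with any 1 base between) and GGGCGG (GC box) in capitals.
S100a11: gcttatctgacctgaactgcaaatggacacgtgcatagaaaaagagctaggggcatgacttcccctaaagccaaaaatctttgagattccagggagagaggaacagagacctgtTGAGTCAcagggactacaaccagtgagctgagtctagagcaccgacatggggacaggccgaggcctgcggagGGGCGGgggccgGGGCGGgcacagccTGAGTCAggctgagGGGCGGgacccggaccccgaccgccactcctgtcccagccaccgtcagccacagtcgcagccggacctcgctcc

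Counted from the annotated start as position 0, S100a8 has TATAAA at -30 and GAGGAAGT on the opposite strand at -172. S100a9 has TATAAA at 0, TTGCNNAA at -236 and GGGCGG at -223. S100a11 has the AP-1 motif at -136 and -38 and GGGCGG at -64, -52 and -24. S100a4 has TATAAA at -31 and GAGGAAGT on the opposite strand at 17, and 1 of the windows of S100a16 has the AP-1 motif at -192 and GGGCGG at -30. The windows of S100a1, S100a6, S100a13 and S100b held none of the 6 motifs searched, the sixth of which was the MEF2 motif. No 2 of the matches overlap. Of 32851 promoter windows in the table, 13.6% hold TATAAA, 10.8% TTGCNNAA, 7.81% the AP-1 motif, 35.7% GGGCGG, 3.20% GAGGAAGT and 3.69% the MEF2 motif. These matches describe letters and not binding.

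The infarcted and non-infarcted libraries labelled Neil3-/- held 18.2 and 14.3 M uniquely assigned reads, and the wild-type ones 17.3 and 14.9 M (M, 1e6 reads). Neil3 itself had more reads in the libraries labelled Neil3-/- (763 infarcted and 391 non-infarcted) than in wild type (155 and 62), so its read number does not check the genotype and directions between genotypes refer to the labels. Heart markers were present throughout, with Myl2, the ventricular myosin light chain, between 1372 and 6067 RPKM. Atrial markers differed between the non-infarcted pieces: Myl7 was at 10.6 RPKM in the library labelled Neil3-/- and 49.0 RPKM in wild type, and its part in the S100 values was not tested. All differences are between single libraries without replicates, so no test was run. The intervals in parentheses are exact and cover counting error at 95% only. In bulk tissue, fewer cells of a type and less RNA per cell cannot be told apart.

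RPKM, the reads of a gene scaled to its length and to the library total, allows levels of different genes to be compared. In infarcted tissue S100a11 was the highest member, at 1041 RPKM in the library labelled Neil3-/- and 921 RPKM in wild type. In non-infarcted tissue S100a1 led, at 766 RPKM in the library labelled Neil3-/- and 716 RPKM in wild type. In both infarcted libraries the order then ran S100a1, S100a10, S100a6 and S100a4, with S100a13 ninth. Between them came S100a9, S100a8 and S100a16 in the library labelled Neil3-/- and S100a8, S100a16 and S100a9 in wild type. In the non-infarcted libraries it ran S100a11, S100a10, S100a6, S100a16, S100a4, S100a13, S100a9 and S100a8. S100b was last in all 4 libraries, at 0.557 to 1.21 RPKM. Neighbours whose counting intervals overlapped were S100a8 with S100a9 in 3 libraries, S100a16 with S100a4 in both non-infarcted libraries, and S100a4 with S100a13 in the non-infarcted library labelled Neil3-/-. In wild-type infarcted tissue S100a16 (75.5 RPKM) stood between S100a8 (79.5 RPKM) and S100a9 (73.2 RPKM), with overlapping intervals. S100a1 ranked 46 and 49 among all genes in non-infarcted tissue, labelled Neil3-/- and wild type, and S100a11 ranked 31 and 38 in infarcted tissue. The deposited coverage, the percent of a gene model covered by reads, was 75.7% to 98.2% for 9 members and 37.9% to 53.2% for S100b.

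**Figure D1:**
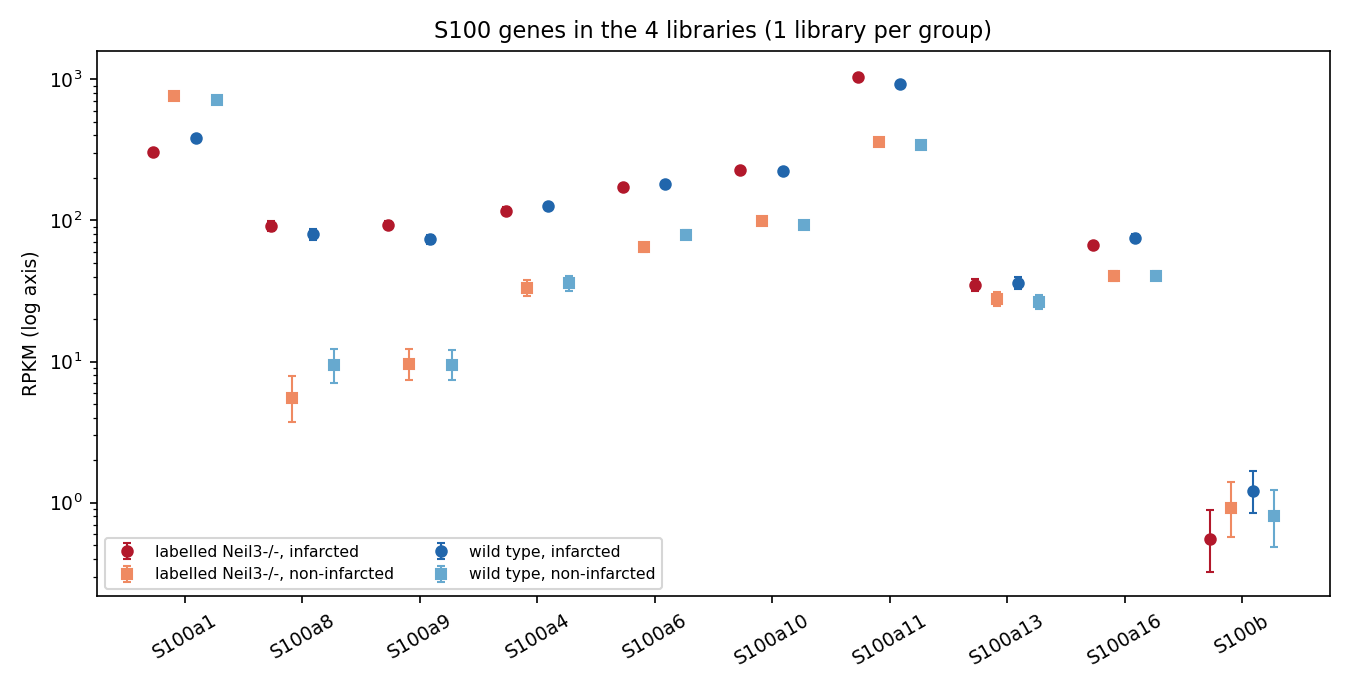
RPKM of the 10 S100 genes (log axis) in 4 libraries, 1 per group, with exact 95% counting intervals. Circles are infarcted and squares non-infarcted tissue; S100a1 alone has both squares above both circles, and for S100b the 4 intervals overlap in part.

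The first comparison asked how the infarcted part of the ventricle differed from the non-infarcted part. In both genotypes the same 6 members exceeded their non-infarcted level by 2-fold or more: S100a8, S100a9, S100a4, S100a6, S100a10 and S100a11. They are 6 of 10 members, where 8.2% of 12563 compared genes were that much higher in the libraries labelled Neil3-/- and 6.21% of 12515 in wild type. The members were chosen with earlier results of these data known, and further S100 genes with few reads are not among the 10. The excess over these shares is therefore a description and not a result about the family. The count was taken on log2 of (RPKM + 1) for genes at 1 RPKM or more in either tissue, which S100b did not reach in the libraries labelled Neil3-/-. S100a1 alone was at least 2-fold lower, and only in the libraries labelled Neil3-/-, where 6.07% of genes were; in wild type, where 3.6% of genes were, no member was. The median log2 ratio of the 10 members was 1.29 in the libraries labelled Neil3-/- and 1.23 in wild type, beside 0.24 and 0.21 over all compared genes.

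**Figure D2:**
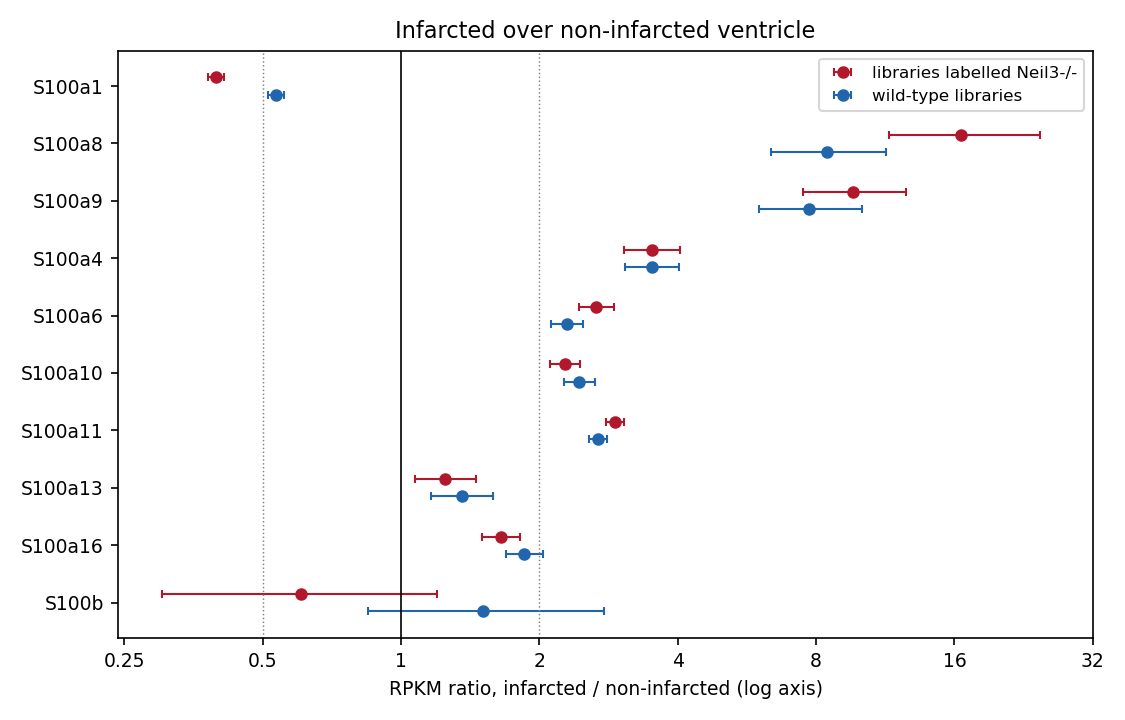
Ratio of RPKM in infarcted over non-infarcted tissue (log axis) for each member, with exact 95% counting intervals; red is labelled Neil3-/-, blue wild type, dotted lines mark 0.5 and 2. S100a8 and S100a9 have the highest ratios, S100a1 lies below 1 in both genotypes, and S100b lies on different sides of 1 with intervals that include it.

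S100a8 and S100a9, the calprotectin subunits, had the largest infarct ratios among the members. In the libraries labelled Neil3-/-, S100a8 was at 91.5 RPKM in infarcted and 5.53 RPKM in non-infarcted tissue, from 653 and 31 reads. In wild type it was at 79.5 RPKM in infarcted and 9.42 RPKM in non-infarcted tissue, from 538 and 55 reads. Both infarcted libraries thus stood far above both non-infarcted ones, by 16.5-fold (11.5 to 24.5) in the libraries labelled Neil3-/- and 8.44-fold (6.39 to 11.4) in wild type. The share of all genes with libraries apart in this way was not computed, here or for the members below. S100a9 was at 92.4 and 9.61 RPKM in infarcted and non-infarcted tissue labelled Neil3-/-, and at 73.2 and 9.49 RPKM in wild-type infarcted and non-infarcted tissue. Its ratios were 9.62 (7.49 to 12.5) in the libraries labelled Neil3-/- and 7.72 (6.01 to 10.05) in wild type. On log2(RPKM + 1), 99.98% of all compared genes had a lower infarct ratio than S100a8 in each genotype. By plain RPKM ratio some genes lay above S100a8, among them Il1r2, at 23.0 in the libraries labelled Neil3-/- and 12.5 in wild type.

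The subunits were at nearly equal levels per length in 3 libraries. The ratio of S100a8 to S100a9 RPKM was 0.990 (0.892 to 1.10) in infarcted tissue labelled Neil3-/-, 1.09 (0.965 to 1.22) in wild-type infarcted tissue and 0.992 (0.683 to 1.43) in wild-type non-infarcted tissue. In non-infarcted tissue labelled Neil3-/- it was 0.576 (0.364 to 0.894), the one library whose interval lay below 1. In infarcted tissue the S100a8 levels of the genotypes lay 1.15-fold apart, and in non-infarcted tissue 1.70-fold.

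Of 18 neutrophil markers, 17 were found and 13 compared in each genotype, and 12 reached a 2-fold higher level in the infarct in each. Their median log2 ratio was 2.04 in the libraries labelled Neil3-/- and 1.70 in wild type, below the log2 ratio of S100a8 (3.82 and 2.95) and of S100a9 (3.14 and 2.82). These use RPKM + 1, which narrows the ratios of genes with low values. By plain RPKM ratio, Il1r2 (23.0) and Retnlg (17.5) lay above S100a8 (16.5) in the libraries labelled Neil3-/-. In wild type Il1r2 (12.5), Fpr2 (12.3), Mmp9 (12.2) and Fpr1 (8.85) lay above S100a8 (8.44). The other compared markers lay below it. Csf3r, the receptor of a neutrophil growth factor, was at 32.6 and 5.40 RPKM in infarcted and non-infarcted tissue labelled Neil3-/-, and at 29.96 and 4.90 RPKM in wild type. Mmp9, a gelatinase of neutrophils, was at 18.5 and 1.54 RPKM, and at 17.5 and 1.43 RPKM, in the same order. Clec4d, a myeloid lectin, was at 33.8 and 4.77 RPKM and at 20.3 and 4.32 RPKM. Lcn2, a granule protein also made by stressed tissue cells, differed least, at 40.1 and 33.5 RPKM and at 68.6 and 59.1 RPKM. The granule genes of immature neutrophils were nearly absent: Ngp, Camp, Elane and Mpo stayed below 1 RPKM in all 4 libraries, and 3 of them in the non-infarcted library labelled Neil3-/- and 2 in the wild-type one had no read. The summed RPKM of the list was 185 and 52.5 in infarcted and non-infarcted tissue labelled Neil3-/-, and 192 and 78.6 in wild type. Without Lcn2, left out after its values were seen, the sums differed 7.64-fold and 6.31-fold. How far neutrophil number sets the S100a8 and S100a9 levels was not tested.

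S100a1, the calcium-handling member of cardiomyocytes, was the only one lower in infarcted tissue in both genotypes. It was at 303 RPKM in infarcted and 766 RPKM in non-infarcted tissue labelled Neil3-/-, from 3390 and 6731 reads. In wild type it was at 383 RPKM in infarcted and 716 RPKM in non-infarcted tissue, from 4062 and 6559 reads. Both infarcted libraries lay below both non-infarcted ones, by 2.53-fold (2.43 to 2.64) in the libraries labelled Neil3-/- and 1.87-fold (1.80 to 1.95) in wild type. The wild-type value passed 2-fold under TMM and median-ratio scaling, with log2 ratios of -1.13 and -1.14 beside -0.90 as deposited.

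All 16 cardiomyocyte markers were lower in infarcted tissue as well, by 2-fold or more for 16 in the libraries labelled Neil3-/- and for 12 in wild type. Their median log2 ratio was -1.82 and -1.41, and 14 and 12 of the 16 had a lower ratio than S100a1. Tnnt2, cardiac troponin T, was at 2160 and 5474 RPKM in infarcted and non-infarcted tissue labelled Neil3-/-, and at 3379 and 6042 RPKM in wild type. Myl2 was at 1372 and 5914 RPKM, and at 2248 and 6067 RPKM. Actc1, cardiac actin, was at 4861 and 9922 RPKM, and at 6933 and 10450 RPKM. The level of S100a1 was 0.140 of that of Tnnt2 in both tissues labelled Neil3-/-, and 0.113 and 0.119 of it in wild-type infarcted and non-infarcted tissue. Tnnt2 is a marker with an infarct log2 ratio near that of S100a1, at -1.34 and -0.84. Against the summed RPKM of the 16 markers, S100a1 equalled 2.05% and 1.70% in infarcted and non-infarcted tissue labelled Neil3-/-. In wild type it equalled 1.76% and 1.54%.

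Targets of S100a1 at the sarcoplasmic reticulum were lower by more than S100a1. Ryr2, the calcium release channel, was at 47.4 and 144 RPKM in infarcted and non-infarcted tissue labelled Neil3-/-, and at 65.5 and 161 RPKM in wild type. Atp2a2, the calcium uptake pump, was at 539 and 1909 RPKM, and at 598 and 1650 RPKM. The ratio of S100a1 to Atp2a2 RPKM was therefore higher in infarcted tissue, at 0.562 (0.543 to 0.582) against 0.401 (0.391 to 0.411) in the libraries labelled Neil3-/-. In wild type it was 0.640 (0.620 to 0.660) against 0.434 (0.423 to 0.445).

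**Figure D3:**
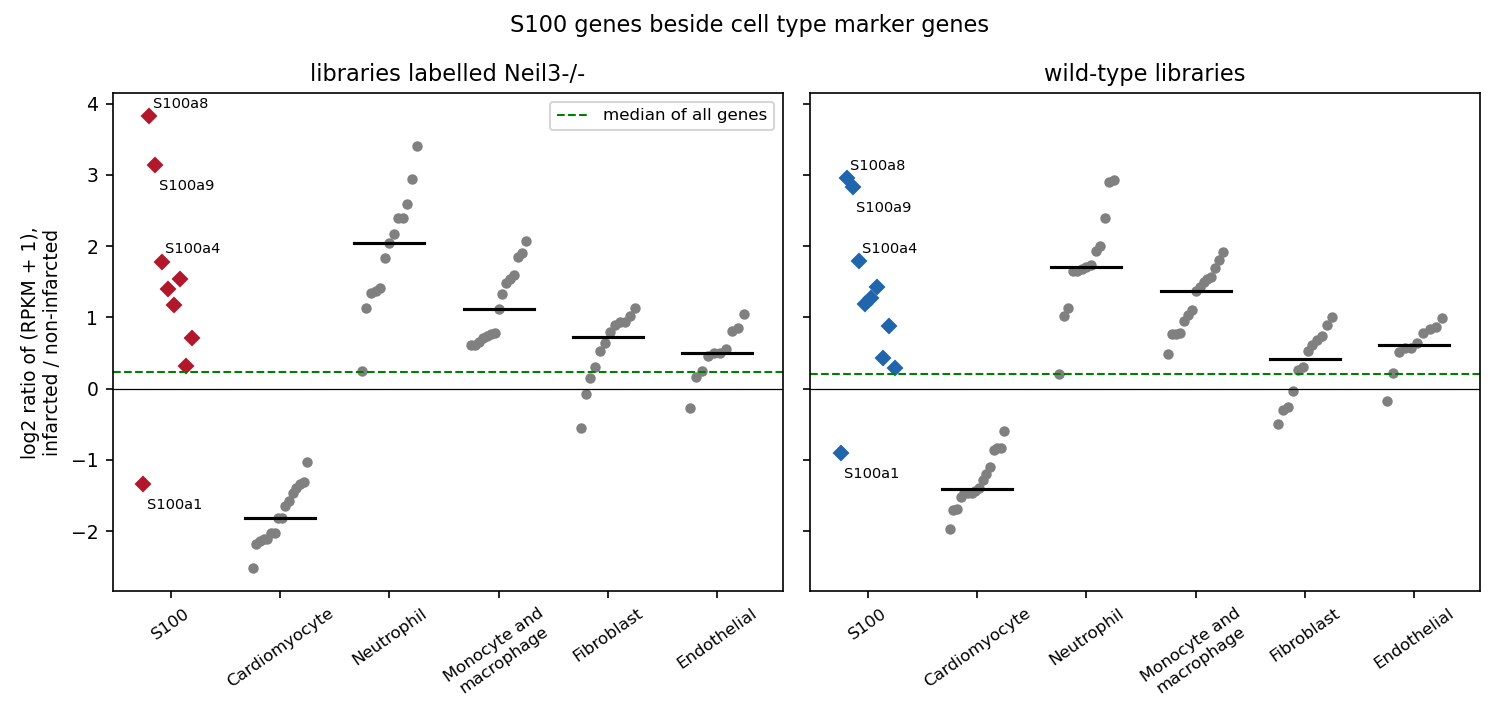
Log2 ratio of (RPKM + 1), infarcted over non-infarcted, of the S100 genes (diamonds) and of marker genes at 1 RPKM or more (grey points, 1 per gene; black line, list median), labelled Neil3-/- left and wild type right. S100a1 lies in the range of the cardiomyocyte markers and S100a8 and S100a9 at the top of the neutrophil range or above it; S100b is shown only in wild type, where it reached 1 RPKM.

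S100a4, a cytoskeletal member found in fibroblasts and leukocytes and also known as fibroblast-specific protein, was about equally higher in both genotypes. It was at 117 and 33.3 RPKM in infarcted and non-infarcted tissue labelled Neil3-/-, and at 125 and 35.7 RPKM in wild-type infarcted and non-infarcted tissue. The infarcted values lay clear of the non-infarcted ones, by 3.51-fold (3.05 to 4.05) and 3.51-fold (3.07 to 4.02). Of the 12 fibroblast markers, 12 had a smaller infarct log2 ratio than S100a4 in each genotype, and of the 15 monocyte and macrophage markers 12 did in the libraries labelled Neil3-/- and 13 in wild type. Myh9, the nonmuscle myosin that S100a4 binds, was at 263 and 120 RPKM in infarcted and non-infarcted tissue labelled Neil3-/- and at 227 and 114 RPKM in wild type. The ratio of S100a4 to Myh9 RPKM was 0.444 and 0.277 in infarcted and non-infarcted tissue labelled Neil3-/-, and 0.553 and 0.314 in wild type.

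The cell types that could hold S100a4 differed in their marker values. Fibroblast markers had a median log2 infarct ratio of 0.72 in the libraries labelled Neil3-/- and 0.42 in wild type, with 2 and 0 of 12 at least 2-fold higher. Col1a1, a fibrillar collagen chain, was at 1316 and 646 RPKM in infarcted and non-infarcted tissue labelled Neil3-/-, and at 821 and 440 RPKM in wild type. Monocyte and macrophage markers had medians of 1.12 and 1.37, with 8 and 10 of 15 at least 2-fold higher. Lyz2, lysozyme of myeloid cells, was at 957 and 441 RPKM in infarcted and non-infarcted tissue labelled Neil3-/-, and at 661 and 244 RPKM in wild type. Endothelial markers had medians of 0.50 and 0.61, with 1 and 0 of 10 at least 2-fold higher. Neutrophil markers had medians of 2.04 and 1.70, with 12 of 13 at least 2-fold higher in each genotype. S100a4, at a log2 ratio of 1.78 in each, lay above 5 of these 13 markers in the libraries labelled Neil3-/- and above 8 in wild type. It lay above all 10 endothelial markers in each genotype. The part of these cell types in the S100a4 values was not tested.

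S100a6, S100a10 and S100a11, broadly made members that act with annexins, were all between 2-fold and 3-fold higher in infarcted tissue. S100a11 was at 1041 and 357 RPKM in infarcted and non-infarcted tissue labelled Neil3-/-, and at 921 and 344 RPKM in wild type, ratios of 2.92 (2.79 to 3.05) and 2.68 (2.56 to 2.80). S100a10 was at 227 and 99.8 RPKM in infarcted and non-infarcted tissue labelled Neil3-/-, and at 225 and 92.3 RPKM in wild type, ratios of 2.27 (2.11 to 2.45) and 2.44 (2.26 to 2.64). S100a6 was at 172 and 64.5 RPKM in infarcted and non-infarcted tissue labelled Neil3-/-, and at 182 and 79.4 RPKM in wild type, ratios of 2.66 (2.44 to 2.91) and 2.30 (2.12 to 2.49). In each case the lower infarcted library was above the higher non-infarcted one. How many of all genes had infarcted and non-infarcted libraries apart in this way, as also given for S100a8, S100a1 and S100a4, was not computed. Under TMM scaling the log2 ratio of S100a10 in the libraries labelled Neil3-/- (0.94 beside 1.17) and that of S100a6 in wild type (0.97 beside 1.19) came to less than 2-fold. RefSeq lists a pseudogene of S100a11 on chromosome 12, and reads that match both copies may be missing from unique counts.

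The annexin partners were measured in the same libraries. S100a10 forms a tetramer with Anxa2, which was at 446 and 186 RPKM in infarcted and non-infarcted tissue labelled Neil3-/- and at 434 and 175 RPKM in wild type. The ratio of S100a10 to Anxa2 RPKM stayed between 0.508 and 0.536 in the 4 libraries, with overlapping intervals. S100a11 binds Anxa1, which was at 119 and 46.8 RPKM, and at 92.8 and 46.0 RPKM, in the same order. S100a11 exceeded it 8.72-fold and 7.63-fold in infarcted and non-infarcted tissue labelled Neil3-/-, and 9.92-fold and 7.47-fold in wild type. S100a6 binds Cacybp, which was at 30.8 and 24.0 RPKM in infarcted and non-infarcted tissue labelled Neil3-/- and at 27.3 and 20.5 RPKM in wild type, ratios of 1.29 (1.17 to 1.41) and 1.33 (1.21 to 1.47). It also binds Anxa11, which was at 37.5 and 40.3 RPKM in infarcted and non-infarcted tissue labelled Neil3-/-, and at 42.3 and 42.6 RPKM in wild type. The ratio of S100a6 to Anxa11 RPKM was 4.58 and 1.60, and 4.31 and 1.86, in that order.

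**Figure D4:**
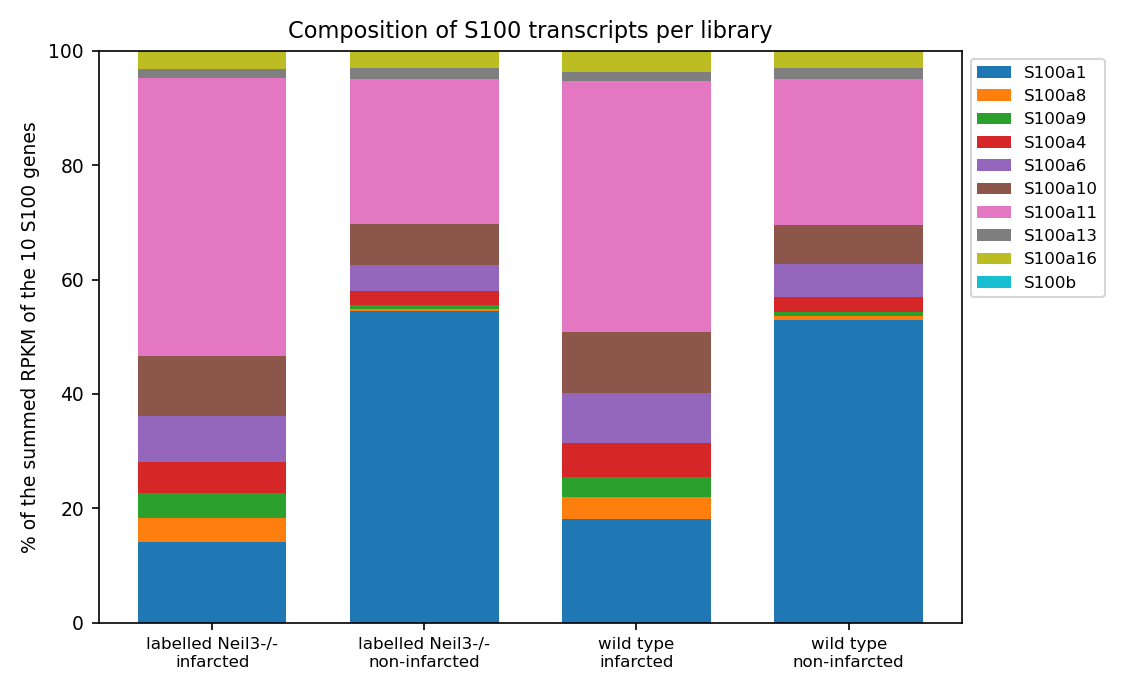
Share of each member in the summed RPKM of the 10 S100 genes, in percent, for the 4 libraries (1 bar per library). S100a1 holds 54.5% and 52.9% of the non-infarcted bars and 14.1% and 18.2% of the infarcted ones, while S100a11 takes the largest share of both infarcted bars.

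The summed RPKM of the 10 genes was 2145 in infarcted and 1405 in non-infarcted tissue labelled Neil3-/-, and 2102 in infarcted and 1354 in non-infarcted wild-type tissue. S100a1 made up 14.1% and 54.5% of the sum in infarcted and non-infarcted tissue labelled Neil3-/-, and 18.2% and 52.9% in wild type. S100a11 made up 48.5% and 25.4%, and 43.8% and 25.4%, in the same order. S100a8 and S100a9 together made up 8.58% and 1.08%, and 7.27% and 1.40%. The ratio of S100a11 to S100a1 RPKM, 3.44 and 2.41 in infarcted tissue labelled Neil3-/- and wild type, was 0.466 and 0.480 in the non-infarcted libraries.

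S100a13 and S100a16 were higher in infarcted tissue by less than 2-fold. S100a13, which takes part in the release of Fgf1 and Il1a, was at 34.7 and 27.8 RPKM in infarcted and non-infarcted tissue labelled Neil3-/-, and at 35.9 and 26.5 RPKM in wild type. Its ratios were 1.25 (1.07 to 1.46) and 1.36 (1.16 to 1.59), above those of 55.6% and 67.6% of compared genes on log2(RPKM + 1). TMM scaling left its log2 ratio in the libraries labelled Neil3-/- at 0.08. Fgf1, one of its cargoes, was lower in infarcted tissue, at 25.5 and 65.0 RPKM in the libraries labelled Neil3-/- and at 35.1 and 67.6 RPKM in wild type, while Il1a stayed below 0.3 RPKM. The RefSeq gene models of S100a1 and S100a13 overlap over 98 bases, and without a stated strand setting reads there cannot be assigned to either. The ratio of S100a1 to S100a13 RPKM was 8.72 and 27.5 in infarcted and non-infarcted tissue labelled Neil3-/-, and 10.6 and 27.0 in wild type.

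S100a16, a broadly made member with a role in fat cell formation in cultured cells, was at 66.98 and 40.5 RPKM in infarcted and non-infarcted tissue labelled Neil3-/-. In wild type it was at 75.5 and 40.7 RPKM. The ratios were 1.65 (1.502 to 1.82) and 1.86 (1.69 to 2.04), just inside the 2-fold limit in wild type.

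S100b, the glial and adipocyte member, was at 0.557 and 0.919 RPKM in infarcted and non-infarcted tissue labelled Neil3-/-, from 17 and 22 reads. In wild type it was at 1.21 and 0.801 RPKM, from 35 and 20 reads. The infarct ratios were 0.607 (0.302 to 1.20) and 1.51 (0.848 to 2.76), and neither differed from 1 beyond counting error. Of 12 glial markers, 4 were compared within each genotype, with medians of 0.60 and 0.21. The medians rest on partly different genes. Fabp7, with 21 reads in infarcted and 0 in non-infarcted tissue, was compared only in the libraries labelled Neil3-/-, and Prx only in wild type. The summed RPKM of the 12 markers lay between 7.98 and 10.4 in the 4 libraries. Mbp, a myelin protein that is also made outside glia, was the highest of them, at 3.16 and 1.10 RPKM in infarcted and non-infarcted tissue labelled Neil3-/- and at 2.25 and 0.696 RPKM in wild type. Of the adipocyte list, Adipoq, Plin1, Cidec, Lep, Retn and Slc7a10 stayed below 1 RPKM in all libraries. Cfd, the adipocyte protease adipsin, was at 1.07 and 3.02 RPKM in infarcted and non-infarcted tissue labelled Neil3-/-, and at 0.0626 and 3.48 RPKM in wild type, where the infarcted value is 1 read. Car3, a carbonic anhydrase of fat and muscle, was at 1.001 and 3.23 RPKM, and at 0.188 and 4.19 RPKM. Both were lower in infarcted tissue of both genotypes, and their part in the S100b values was not tested. Fabp4 and Lpl, its highest members, are also made by endothelial cells and cardiomyocytes.

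Receptors and signalling genes that act with released S100 proteins were partly higher in infarcted tissue. Of 14 genes, 8 were at least 2-fold higher and none lower in the libraries labelled Neil3-/-, and 7 of 13 compared were higher and 1 lower in wild type, with medians of 1.11 and 1.10. Tlr4, a receptor for calprotectin, differed little, at 11.997 and 8.06 RPKM in infarcted and non-infarcted tissue labelled Neil3-/- and at 11.3 and 8.53 RPKM in wild type. Its coreceptor Cd14 was at 30.9 and 9.58 RPKM, and at 28.1 and 9.28 RPKM. Ager, the receptor for advanced glycation end products that binds several S100 proteins, was low, at 1.14 and 0.5002 RPKM and at 0.870 and 0.576 RPKM. Bsg, a receptor for S100a9, was at 282 and 459 RPKM, and at 416 and 558 RPKM. Cd36, a fatty acid transporter that binds calprotectin with its cargo, was at 166 and 330 RPKM, and at 173 and 353 RPKM. Cyba and Cybb, subunits of the phagocyte oxidase, were higher in infarcted tissue, with Cyba at 121 and 49.6 RPKM and at 102 and 42.4 RPKM. Of 22 intracellular partners, 19 were compared in each genotype, and 5 were at least 2-fold higher and 4 lower in the libraries labelled Neil3-/- against 2 and 3 in wild type.

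The second comparison set libraries labelled Neil3-/- against wild type. No member differed by 2-fold on the log2(RPKM + 1) scale in either tissue, where 0.489% of 12464 genes did in infarcted and 0.442% of 12226 in non-infarcted tissue. In infarcted tissue the median log2 ratio of the 10 members was -0.07, beside 0.02 for all compared genes. The counting interval lay above 1 for 3 members, below 1 for 4 and across 1 for 3. In non-infarcted tissue the median was 0.03, beside 0.01 for all compared genes, and the interval lay above 1 for 1 member, below 1 for 2 and across 1 for 7. The share of all genes whose interval left out 1 was not computed, so these interval counts cannot be set against it. These comparisons use the same 4 libraries as the infarct comparisons and are not independent of them.

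In infarcted tissue, S100a9 was at 92.4 RPKM in the library labelled Neil3-/- and 73.2 RPKM in wild type, a ratio of 1.26 (1.14 to 1.40). S100a8 was 1.15-fold (1.03 to 1.29) and S100a11 1.13-fold (1.10 to 1.16) higher. The neutrophil markers had a median log2 ratio of 0.10 in this comparison, with 9 of 13 above 0, and monocyte and macrophage markers one of 0.42, with 14 of 15 above 0. S100a1 was at 303 RPKM in the library labelled Neil3-/- and 383 RPKM in wild type, 1.26-fold lower (1.21 to 1.32). The cardiomyocyte markers were lower for 16 of 16 genes, with a median of -0.55 and summed levels of 14742 and 21736 RPKM. S100a16 had a ratio of 0.887 (0.822 to 0.957) and S100a6 one of 0.942 (0.888 to 0.999). S100a4 (0.931, 0.856 to 1.013), S100a13 (0.966, 0.843 to 1.11) and S100a10 (1.005, 0.952 to 1.06) had intervals that include 1, and that of S100a10 turned below 1 under TMM and median-ratio scaling. The fibroblast markers, 12 of 12 above 0 with a median of 0.40 in the same comparison, are set beside these values, and their part was not tested. S100b was at 0.557 RPKM in the library labelled Neil3-/- and 1.21 RPKM in wild type, a ratio of 0.461 (0.242 to 0.845) from 17 and 35 reads.

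In non-infarcted tissue, S100a8 was at 5.53 RPKM in the library labelled Neil3-/- and 9.42 RPKM in wild type, 1.70-fold lower (1.08 to 2.74). S100a9 was at 9.61 and 9.49 RPKM in the same order, a ratio of 1.012 (0.712 to 1.44). The neutrophil markers were mixed here, with 3 of 8 compared genes above 0 and a median of -0.07. Monocyte and macrophage markers were above 0 for 14 of 15 genes, with a median of 0.59 and summed levels of 1238 and 771 RPKM in the libraries labelled Neil3-/- and wild type. Fibroblast markers were above 0 for 10 of 12 genes, with a median of 0.21. The part of these markers in the S100a8 and S100a6 values was not tested. Csf3r had a ratio of 1.10 (0.922 to 1.32) and Mmp9 one of 1.07 (0.757 to 1.52). S100a6 was at 64.5 RPKM in the library labelled Neil3-/- and 79.4 RPKM in wild type, 1.23-fold lower (1.11 to 1.36). S100a1 was at 766 and 716 RPKM, a ratio of 1.07 (1.03 to 1.11). The remaining 6 members had ratios from 0.932 for S100a4 to 1.15 for S100b, with intervals that include 1.

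**Figure D5:**
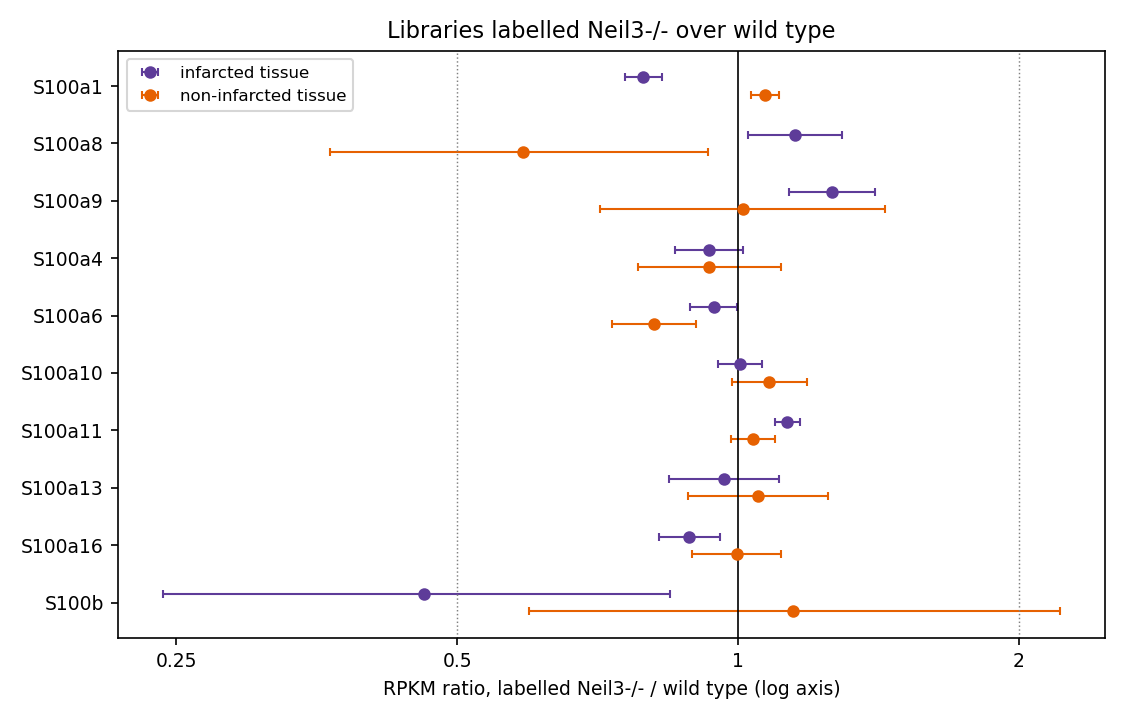
Ratio of RPKM in libraries labelled Neil3-/- over wild type (log axis) for each member, with exact 95% counting intervals; purple is infarcted and orange non-infarcted tissue, dotted lines mark 0.5 and 2. S100a1 and S100a8 have intervals on different sides of 1 in the 2 tissues, and S100b alone has a ratio under 0.5, in infarcted tissue.

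The infarct ratios of both genotypes were set against each other for each member. The ratio of ratios, labelled Neil3-/- over wild type, was 1.96 (1.24 to 3.09) for S100a8, 1.16 (1.03 to 1.30) for S100a6 and 1.09 (1.02 to 1.16) for S100a11. It was 0.740 (0.699 to 0.783) for S100a1 and 0.402 (0.174 to 0.929) for S100b. For S100a9, S100a4, S100a10, S100a13 and S100a16 the interval included 1, and for S100a4 the value was 0.9997 (0.825 to 1.21). The share of all genes whose interval left out 1 was not computed, so this split of the members cannot be set against it. None of the 10 differed by 2-fold on the log2(RPKM + 1) scale, where 0.527% of 12716 genes did. With 0.1 added to the RPKM in place of 1, the log2 difference was -1.17 for S100b, beyond 2-fold, and 0.96 for S100a8. The share of all genes at that setting was not computed. The intervals use the Poisson error of the 4 read numbers and compare 4 libraries, not conditions.

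Genes with the most similar pattern were found over the 4 libraries among 9638 genes at 5 RPKM or more in any of them, by the root mean square difference of log2(RPKM + 1) centred on each gene's mean. For S100a8 they were Il1r2, Arg1 and AA467197, and for S100a9 Mmp9, Cxcl3 and Il1r2, at differences of 0.161 to 0.304 and 0.0957 to 0.174. Il1r2, a decoy receptor of neutrophils and other myeloid cells, was at 17.8 and 0.772 RPKM in infarcted and non-infarcted tissue labelled Neil3-/-, and at 16.1 and 1.28 RPKM in wild type. For S100a1 they were Sirt3, a mitochondrial deacetylase, Nudt8, and Coq5, an enzyme of ubiquinone synthesis, at 0.0161 to 0.0198. For S100a4 they were Selp, Plau and Plaur, an adhesion receptor of endothelium and platelets and the urokinase protease with its receptor. For S100a6 they were Ccl12, Lrrc32 and Mcam, for S100a10 Plekho2, Efhd2 and Mxd1, and for S100a11 Slc7a8, Fxyd5 and Cd14. For S100a13 they were Ankrd54, Slc35a2 and Vcl, and for S100a16 Ubtd1, 3110082I17Rik and Ralgds. For S100b, whose pattern rests on few reads, they were Zfp580, Mrps6 and Gpihbp1. Adding 1 RPKM narrows the ratios of genes with low values. Cxcl3 was at 7.89 and 0.136 RPKM in infarcted and non-infarcted tissue labelled Neil3-/-, and at 6.19 and 0.196 RPKM in wild type. By plain RPKM ratio it thus differed more between tissues than S100a9 did. With 4 libraries such likeness is only a description.

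Other listed genes of the family had few reads. Of 14 further S100 and S100-fused genes, 7 were listed with a read in any library, and the other 7 symbols were not found. The highest count was 12 reads, for Tchh in each infarcted library, and S100a3, S100a5, S100a7a, S100a14 and S100g had at most 2 reads in any library. A count of 0 allows up to 3 reads, or 0.330 to 0.420 RPKM for a gene of 500 bases at these depths.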

How the data were processed

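Total RNA of heart was made into libraries with standard Illumina protocols, per the labels. Per the file headers, the authors deposited for each gene its count of uniquely assigned reads, its length, a coverage in percent and an RPKM value. The counts of a library sum to the total in its header, and the deposited RPKM equal the reads divided by the listed length and that total. Only genes with a read are listed, and others were taken as 0. The build is mm9 per the submitters' processing notes; which aligner, counter, annotation and strand setting were used is not given in the sources.

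Each comparison is between single libraries, so no p-value was computed. Ratios of RPKM carry the exact Clopper-Pearson 95% interval of the 2 libraries' reads, single levels an exact Poisson interval, and ratios of ratios a Wald interval on the log scale. Genes at 1 RPKM or more in a compared library were counted when at least 2-fold apart on log2(RPKM + 1). The 2-fold count and the exact interval of ratios were tested on simulated counts, and the other steps were not. The 14 gene lists hold 174 entries, 165 found. The members, lists and named genes (all members; up to 4 list genes of highest RPKM; partners of members; 3 genes of most similar pattern) were chosen with earlier results of these data known. Markers named for being below 1 RPKM were chosen after their values were seen. Alternatives were other pseudocounts, filters, a 1.5-fold limit, library totals without ribosomal, small noncoding and mitochondrial RNA, median-ratio scaling and TMM (edgeR 4.0.16, R 4.3.3). Python 3.11.15 with pandas 2.3.3 and scipy 1.17.1 was used. Promoter sequences are from RefSeq, GRCm38.p6.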

Additional observations from a re-analysis of the deposited data

Results flagged for a closer look

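A member is listed here when its ratio lay on different sides of 1 in the 2 settings compared and the interval of the ratio of ratios left out 1. That difference was tested against counting error only, not between replicates. The share of all genes that meet this rule was not computed. S100a1 had a labelled Neil3-/- over wild-type ratio of 0.791 in infarcted and 1.07 in non-infarcted tissue. This was not particular to S100a1. Of 16 cardiomyocyte markers, 0 had a ratio above 1 in infarcted tissue and 5 had one in non-infarcted tissue, among them Atp2a2 (0.901 and 1.16). The median infarct log2 ratio of these markers was -1.82 in the libraries labelled Neil3-/- and -1.41 in wild type, beside -1.34 and -0.90 for S100a1. S100a8 had ratios of 1.15 in infarcted and 0.587 in non-infarcted tissue, the second from 31 and 55 reads. S100b had ratios of 0.461 in infarcted and 1.15 in non-infarcted tissue, from 17 to 35 reads per library. Its infarct ratio was 0.607 in the libraries labelled Neil3-/- and 1.51 in wild type.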

How the results depend on the processing

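The counts of members at least 2-fold apart between tissues, 7 in the libraries labelled Neil3-/- and 6 in wild type, stayed within 1.5 times under all 8 alternatives. TMM and median-ratio scaling, which bring the median log2 ratio of all genes from 0.24 to 0.03 and 0.01 in the libraries labelled Neil3-/- and from 0.21 to 0.01 and 0.01 in wild type, changed which members were counted. Both dropped S100a10 in the libraries labelled Neil3-/- and S100a6 in wild type, and both added S100a1 as lower in wild type. The same scalings moved the share of higher genes among all genes at least 2-fold apart from 57.5% to 34.1% and 31.97% in the libraries labelled Neil3-/- and from 63.3% to 37.2% and 36.5% in wild type. Between genotypes no member was counted, except that S100a8 in non-infarcted tissue made the count 1 at a limit of 1.5-fold. Of 250 recomputed member values none that had been counted changed direction, and 3 others, all near 0, changed sign. Of these values 29 moved by more than the counting interval, 13 each under TMM and median-ratio scaling and 3 with a pseudocount of 5. The summed neutrophil marker ratio, 3.53 in the libraries labelled Neil3-/- and 2.44 in wild type, was 7.64 and 6.31 without Lcn2, and between genotypes 0.967 and 0.667 became 1.18 and 0.974 in infarcted and non-infarcted tissue. Over all genes, the number at least 2-fold apart, 1792 and 1227 between tissues (labelled Neil3-/- and wild type) and 61 and 54 between genotypes (infarcted and non-infarcted), was 859, 526, 16 and 13 with a pseudocount of 5. It was 1895, 141 and 118 with a pseudocount of 0.1 in the last 3 comparisons, 32 and 25 between genotypes with a minimum of 5 RPKM, and 4703, 3894, 381 and 214 at 1.5-fold. No paired analysis was run: each group has 1 library and the labels give no replicate numbers. Leaving out a library removes each comparison that uses it and leaves the others as they are. S100b and the non-infarcted values of S100a8 are limited by depth, at 17 to 35 and 31 to 55 reads.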

Other observations

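The remaining marker lists gave these infarct values, with the libraries labelled Neil3-/- first and wild type second. Smooth muscle and pericyte markers had median log2 ratios of 0.32 and 0.22 over 10 genes, mesothelial and epicardial markers 0.60 and 0.73 over 3 genes, and atrial markers -2.03 and -3.73 over 4 genes. Lymphocyte markers were compared for 1 gene, at 1.10, and for 2 genes, with a median of 1.04. Adipocyte markers had medians of -1.02 and -1.92 over 4 genes.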
